A study of Mus musculus with 2 samples.

Results

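Expressed pseudogenes of the mouse adrenal gland were examined in 2 long-read RNA libraries. The annotation names 11594 pseudogenes on chromosomes 1 to 19, and 456 of them (3.93%) had at least 2 reads summed over both libraries. These 456 genes were chosen by their measured read counts, so their number and abundance are a description and no test supports them. They are set against 18111 annotated genes with at least 1 read, of which 13825 are protein-coding with at least 2. Adrenal gland came from 14-day-old female B6CASTF1/J mice, the F1 cross of a C57BL/6 and a CAST parent, with no treatment and no second group. The 2 libraries are biological replicates 2 and 1. A description shared by both libraries speaks of 3 females, while the name of the tissue itself speaks of a single female for replicate 2 and of 3 for replicate 1. Whether either library was made from pooled animals is thus not settled by the labels. Each tissue sample gave 1 library (n = 2 throughout), so intervals and p-values cover the counting error of these libraries and not the spread between animals.

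A pseudogene is a gene copy that no longer encodes the working protein of its source. A processed pseudogene arose when an mRNA was copied into DNA and inserted elsewhere in the genome, so it lacks the introns of its source. An unprocessed pseudogene arose by duplication of genomic DNA and keeps exons and introns. A unitary pseudogene is a gene that was disabled without a working copy left in the species, and a polymorphic pseudogene is disabled in the reference strain but intact in other strains. Abundant housekeeping mRNAs, such as those of ribosomal proteins and glycolytic enzymes, are known sources of processed copies in mammals. Because a recent copy and its source share nearly all bases, a read from one can be placed on the other, and counts of both are uncertain wherever their sequences are nearly equal.

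Short stretches show how close the copies with most reads are to their coding genes. Each was read from the GENCODE M21 transcript sequences (mm10) inside the coding part, 5′ to 3′, and capitals mark bases that differ between the 2 members of a pair. For each pair the 120-column window of the alignment with most differences is shown. Cyp21a2-ps, which had more reads on spliced models than any other pseudogene, lies on chromosome 17 (chr17:34719813-34722252, minus strand), 79095 bases from Cyp21a1 (chr17:34801348-34804561, minus strand), which encodes the steroid 21-hydroxylase. Over 1171 aligned coding columns the pair had 30 substitutions and 1 gap column (97.4% identity), with 11 differing columns in the window.
Cyp21a2-ps: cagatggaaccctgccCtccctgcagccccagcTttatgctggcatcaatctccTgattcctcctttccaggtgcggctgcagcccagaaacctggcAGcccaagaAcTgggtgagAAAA
Cyp21a1: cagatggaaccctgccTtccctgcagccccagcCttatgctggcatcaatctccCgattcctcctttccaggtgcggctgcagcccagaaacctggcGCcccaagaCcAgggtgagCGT

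Gm15459 (chr5:5781615-5783555, minus strand), the pseudogene with most reads, is a processed copy of Hspa8 (chr9:40800984-40810087, plus strand), which encodes a constitutive heat shock protein. The pair had 5 substitutions over 1938 coding columns (99.7% identity), 1 of them in the window.
Gm15459: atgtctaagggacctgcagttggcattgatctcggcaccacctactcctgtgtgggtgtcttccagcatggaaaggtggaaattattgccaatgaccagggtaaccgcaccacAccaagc
Hspa8: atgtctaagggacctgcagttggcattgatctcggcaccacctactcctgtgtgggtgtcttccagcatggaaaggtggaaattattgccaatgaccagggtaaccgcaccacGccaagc

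Mpc1-ps (chr12:110858565-110858894, minus strand) had the highest ratio of replicate 2 to replicate 1 among the pseudogenes tested. It copies Mpc1 (chr17:8282904-8297661, plus strand), a subunit of the mitochondrial pyruvate carrier, with 1 substitution over 327 coding columns (99.7% identity), which lies in the window.
Mpc1-ps: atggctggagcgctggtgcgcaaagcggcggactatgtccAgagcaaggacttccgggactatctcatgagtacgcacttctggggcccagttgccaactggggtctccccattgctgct
Mpc1: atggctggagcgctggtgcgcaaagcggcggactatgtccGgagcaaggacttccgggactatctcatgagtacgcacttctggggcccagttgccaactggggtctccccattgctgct

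Gm12671 (chr4:91851668-91852669, minus strand) stands for the copies with no difference at all. It was identical to the glycolytic gene Gapdh (chr6:125161715-125166467, minus strand) over all 999 coding columns, so the line below is the sequence of both.
Gm12671: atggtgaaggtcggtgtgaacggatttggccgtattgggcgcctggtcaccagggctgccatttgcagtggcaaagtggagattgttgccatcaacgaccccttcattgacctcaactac

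Replicate 2 held 946553 reads in annotated genes and replicate 1 held 1065570, and CPM is a gene's share of these, scaled to 1000000. A long read is meant to cover a whole cDNA, so counts were not divided by length, and between genes read counts rather than levels are compared. The 456 pseudogenes took 10455 reads in replicate 2, or 1.10% of gene reads (95% Clopper-Pearson interval 1.08 to 1.13). In replicate 1 they took 14642, or 1.37% (1.35 to 1.40). The mean share was 1.24 ± 0.191% (SD, n = 2). Reads were seen in both libraries for 373 of them, only in replicate 2 for 34 and only in replicate 1 for 49. Those confined to 1 library had few reads, at most 13 in replicate 2 and at most 9 in replicate 1. The median pseudogene had 7 summed reads, 138 had at least 20 and 52 at least 100. The 10 with most reads took 41.2% of all pseudogene reads. At the threshold, 92 members had exactly 2 reads (1 in each library for 42 of them), while 247 pseudogenes just outside had exactly 1.

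Processed pseudogenes made up most of the group. There were 324 processed and 47 transcribed processed pseudogenes, 31 unprocessed and 29 transcribed unprocessed ones, 9 polymorphic, 8 transcribed unitary and 8 of the unspecified class pseudogene. As shares of what is annotated, 3.63% of 8924 processed and 1.73% of 1789 unprocessed pseudogenes were members, against 17.5% of 269 transcribed processed, 13.1% of 221 transcribed unprocessed and 50% of 16 transcribed unitary ones. Processed pseudogenes took 80.6% of pseudogene reads in replicate 2 and 79.0% in replicate 1, and transcribed processed ones 12.4% in replicate 2 and 14.0% in replicate 1. Of the 456, 345 are annotated with 1 exon and 111 with 2 or more. Members came from every chromosome examined, from 9 on chromosome 18 to 37 on chromosome 5. A further 28 pseudogenes of chromosome X with at least 2 reads were outside the rule.

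Most of the leading pseudogenes were processed copies of housekeeping genes. Gm15459 had 1263 reads in replicate 2 and 1479 in replicate 1, 1361 ± 38.0 CPM (SD, n = 2). Its counts did not pass the main test between libraries, which is scaled to gene reads. Gm10123, a copy of Ppia, which encodes the prolyl isomerase cyclophilin A, had 843 reads in replicate 2 and 1278 in replicate 1 (1045 ± 218 CPM). Gm15500, a copy of the ribosomal protein gene Rpl5, had 473 reads in replicate 2 and 771 in replicate 1 (612 ± 158 CPM). The next highest value in any library was 412 CPM, and the 2 leading ones alone held 19.4% of pseudogene reads. The next in order were Rps19-ps6, Gm10698, Rpl37rt and Gm12671, between 301 and 344 CPM on average, and their CPM values overlapped between genes given an SD of 21.2 to 96.3. Gm10698 copies Tmed2, whose product works in transport between endoplasmic reticulum and Golgi. Of the 15 members of highest mean CPM, 14 had at most 2 reads on a model with more than 1 exon in either library. The exception was Cyp21a2-ps, all of whose reads were spliced. Gm12338, a copy of the cytochrome oxidase gene Cox7c, was the only one of the 15 with more CPM in replicate 2, with 323 reads there and 86 in replicate 1.

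**Figure D1:**
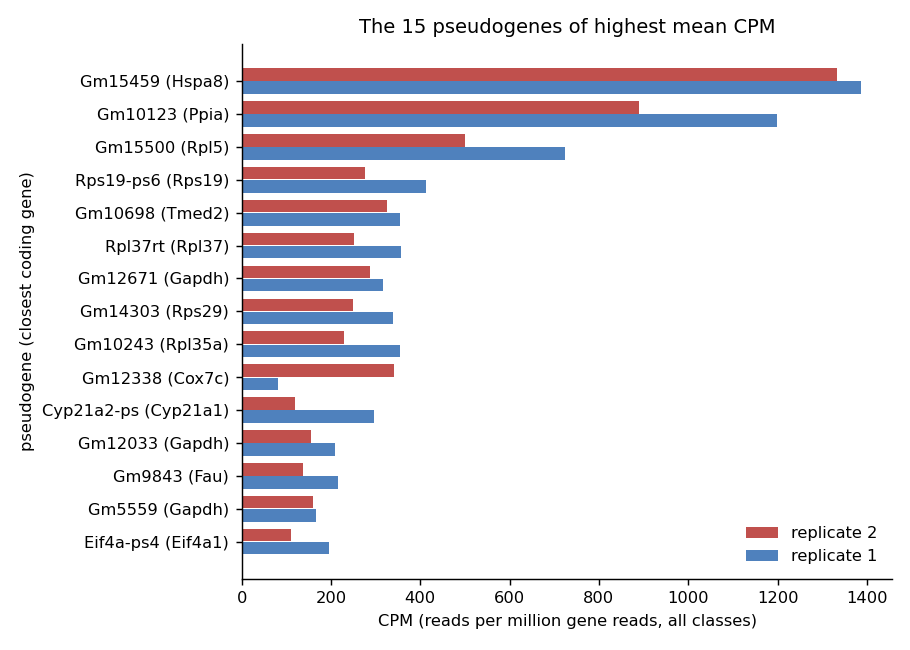
CPM (horizontal axis) of the 15 pseudogenes of highest mean CPM in replicate 2 (red, upper bars) and replicate 1 (blue, lower bars), with the closest coding gene in brackets. Gm15459 and Gm10123 lead in both libraries, and Gm12338 is the single one with the longer bar in replicate 2.

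The reads fell on annotated models. Known models, which match an annotated transcript, took 95.6% of pseudogene reads in replicate 2 and 95.3% in replicate 1, against 78.2% and 76.0% of protein-coding reads in replicates 2 and 1. Most pseudogene reads were on models of 1 exon, which have no introns to match, so the 2 groups differ in what a match requires. The Known share was not compared at equal exon number. The other classes were small. ISM models, which match part of an annotated transcript, took 0.956% in replicate 2 and 0.724% in replicate 1, against 10.7% and 10.9% of protein-coding reads. NIC models, which join annotated splice sites in a new order, took 1.05% in replicate 2 and 1.86% in replicate 1. NNC models, with an unannotated splice site, took 1.04% and 0.963%, and Genomic models, which lie on a gene but follow none of its splicing, 1.35% and 1.19%, in replicates 2 and 1. Models with 2 or more exons held 5.10% of pseudogene reads (95% interval 4.68 to 5.54) in replicate 2. In replicate 1 they held 5.62% (5.25 to 6.01). For protein-coding genes the shares were 91.7% and 90.9% in replicates 2 and 1. Among processed and transcribed processed pseudogenes this share was 1.18% in replicate 2 and 1.20% in replicate 1, and among the other members 56.9% in replicate 2 and 64.6% in replicate 1.

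For 401 of the 456 pseudogenes a protein-coding transcript matched at least 50% of the pseudogene transcript on the same strand, and these matches named 301 different genes, called here the closest coding gene. Identity was 99% or more for 232 members, which took 87.6% of pseudogene reads in replicate 2 and 86.5% in replicate 1. The 73 members with 100% identity took 41.1% of reads in replicate 2 and 42.4% in replicate 1, and 69 of them were identical over their whole length. The 55 members below 95% took 1.78% in replicate 2 and 1.73% in replicate 1. Of 88 members whose symbol names a gene and that had a match, 84 had that gene as the closest. Processed members lay on the chromosome of their closest gene in 26 of 352 cases (7.39%), and unprocessed, unitary and polymorphic members in 31 of 48 (64.6%).

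Processed pseudogenes with fewer reads were less like a coding gene. Processed pseudogenes with at least 20 reads had a median identity of 99.8% (quartiles 99.6 and 100%, 118 with a match), those with 2 to 19 reads 98.95% (96.8 and 99.5%, 234 with a match), those with 1 read 96.7% (90.7 and 98.9%, 188) and those with 0 reads 88.9% (81.7 and 94.2%, 7805). Identical copies made up 36.4% of the first group and 0.820% of the last. Restricted to copies whose closest gene had at least 20 reads itself, the medians were 99.8% with at least 20 reads and 88.9% with 0. These medians describe the annotation and the placement of reads and were not tested.

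**Figure D2:**
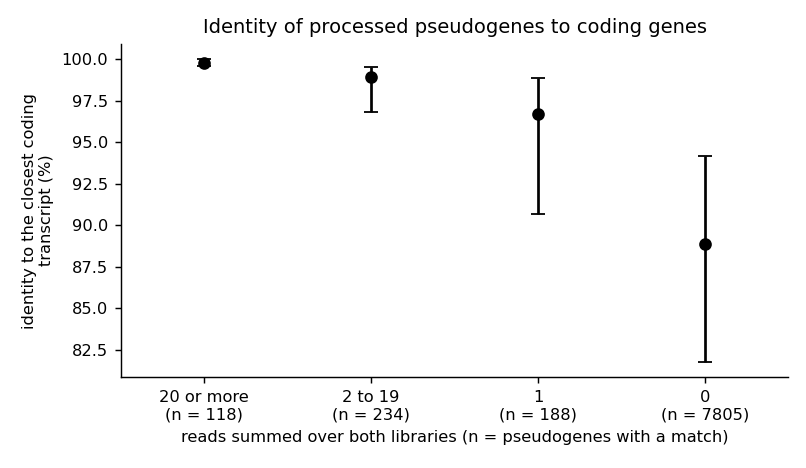
Identity in percent (vertical axis, starting above 0) of processed and transcribed processed pseudogenes to the closest protein-coding transcript, by reads summed over both libraries; points are medians and bars run between the quartiles. The median falls through the 4 groups, 99.8%, 98.95%, 96.7% and 88.9%.

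Most processed pseudogenes with many reads also kept an open reading frame in the reference sequence. Among the 118 with at least 20 reads and a match, 73 (61.9%) had the start codon of the closest gene followed by a frame of exactly the same number of codons before the first stop. A further 28 had no stop codon within the annotated transcript, 8 had a shorter frame, 1 a longer one, and in 8 the start codon lay outside the match. Among 234 with 2 to 19 reads, 77 (32.9%) had a frame of full length and 51 (21.8%) a shorter one. These groups also differ in identity to the closest gene (medians 99.8% and 98.95%), so frame and identity cannot be told apart here. Frames of pseudogenes outside the 456 were not examined. Gm15459 kept a frame of 646 codons, Gm15500 one of 297, Gm12671 one of 333 and Mpc1-ps one of 109. Annotated copies were short beside their sources, with a median of 520.5 nt against 1057 nt for the closest transcript among these 118, and 115 of 118 were shorter than that transcript. Whether a protein is made was not measured.

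Read against their closest genes, copies of some housekeeping genes took nearly all reads of the pair. Gapdh, with 7 annotated exons, had 13 reads in replicate 2 and 12 in replicate 1, while its 10 copies had 703 reads in replicate 2 and 905 in replicate 1, which was 98.2% and 98.7% of reads on gene and copies. Among these copies Gm12671 had 271 reads in replicate 2 and 337 in replicate 1, Gm5559 151 and 177, Gm12033 148 and 223, Gm7336 76 and 97, and Gm13394 43 and 57, in the same order. The other 5 Gapdh copies had at most 6 reads in a library, although Gm10359 is identical to Gapdh too. The 3 copies of Rpl17 took 93.8% of the joint reads in replicate 2 and 91.6% in replicate 1, the 5 copies of Rpl21 93.2% and 92.0%, and the 10 copies of Rpl35a 82.0% and 79.4%, in replicates 2 and 1. Counts near evenness were seen for Ppia (Gm10123, 49.0% in replicate 2 and 48.6% in replicate 1), Tmed2 (Gm10698, 46.4% and 47.6%), Rps29 (Gm14303, 46.0% and 47.6%) and Eif4a1, an RNA helicase of translation initiation (Eif4a-ps4, 46.1% and 48.4%). Hspa8 had 1334 reads in replicate 2 and 1806 in replicate 1, beside 1266 and 1480 on its 2 copies.

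**Figure D3:**
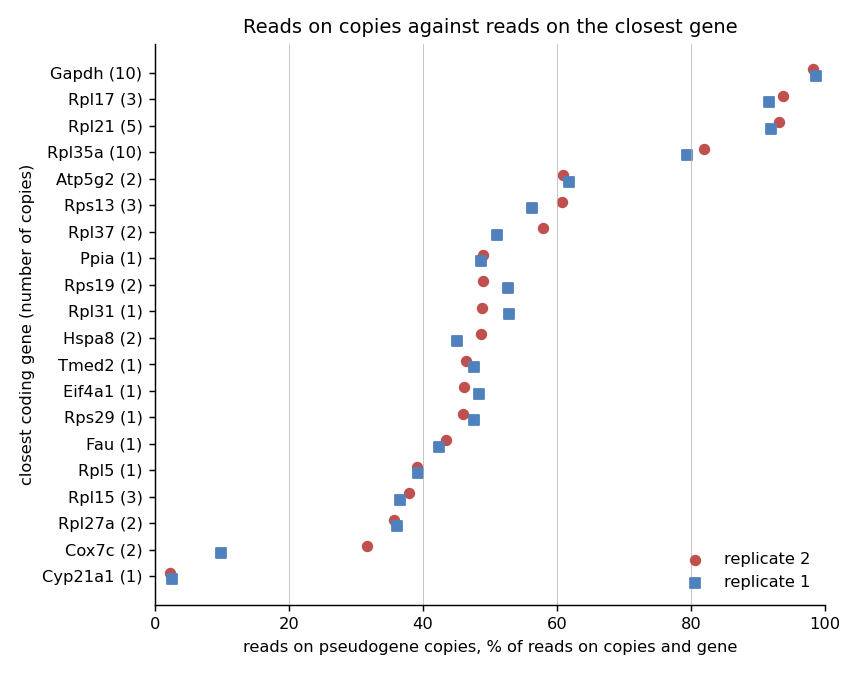
Reads on pseudogene copies as a percentage of reads on the copies and their closest coding gene together (horizontal axis), for the 20 closest genes with most copy reads, in replicate 2 (red circles) and replicate 1 (blue squares); the number of copies is in brackets. Gapdh, Rpl17, Rpl21 and Rpl35a lie above 79%, Cyp21a1 near 2%, and Cox7c is the gene whose libraries lie farthest apart.

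Single copies differed widely in the share of a pair's reads that they took. There were 115 members that are the only copy of their closest gene in the group, are at least 99% identical to it and share at least 100 reads with it. The copy took a median of 4.75% of the pair's reads in replicate 2 and 4.84% in replicate 1, with a range of 0 to 51.7% in replicate 2 and 0 to 52.8% in replicate 1. The 42 identical ones had medians of 10.7% in replicate 2 and 11.5% in replicate 1, and the 73 between 99 and 100% identity 3.77% and 2.44%. Of the 115, 52 copies had at least 20 reads. The ratio of copy to gene reads differed less than 1.5 times between the libraries for 35 of these and at least 2 times for 8. Of 133 members with at least 20 reads and a match, 19 had more reads than the closest gene in both libraries, among them Rpl37rt (238 reads in replicate 2 and 381 in replicate 1, against 174 and 367 for Rpl37) and Gm12191 (59 and 133, against 23 and 41 for Rpl30).

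A run of 5 unprocessed pseudogenes on chromosome 1 (chr1:24612775-24616197) copies mitochondrial DNA. They had 163 reads in replicate 2 and 217 in replicate 1, against 702 and 883 on the mitochondrial genes they match. Gm10925 had 61 and 68 reads in replicates 2 and 1 and was identical to mt-Atp6, a subunit of ATP synthase, which had 57 and 68. Gm28437 had 34 and 48 reads beside 37 and 52 on mt-Co3, a cytochrome oxidase subunit. Gm28661 (17 and 22, closest to mt-Co2), Gm29216 (48 and 79, closest to mt-Co1) and Gm28438 (3 and 0, closest to mt-Nd3) completed the run. None of these 5 had a spliced read.

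Ribosomal protein genes were the largest parent family. Of 110 members whose symbol names a parent, 53 name a ribosomal protein gene, and these took 1328 reads (12.7% of pseudogene reads) in replicate 2 and 2267 (15.5%) in replicate 1. Taken by closest gene, which adds copies whose symbols name no parent, the family had 135 members with 3503 reads (33.5%) in replicate 2 and 5851 (39.96%) in replicate 1. Rps19-ps6 led those with a parent in the symbol with 261 reads in replicate 2 and 439 in replicate 1, followed by Rpl31-ps8 (104 and 171) and Rpl19-ps11 (100 and 165). Counts of 80 to 160 reads were seen for Rpl15-ps3, Rpl17-ps5 and Rps13-ps1, at 103, 89 and 90 in replicate 2 and 156, 159 and 158 in replicate 1. The others with at least 10 reads, between 1 and 69 in replicate 2 and 4 and 121 in replicate 1, were Rps23-ps1, Rpl28-ps1, Rpl35a-ps2, Rpl27-ps3, Rpl34-ps1, Rpl10a-ps1, Rps13-ps2, Rps6-ps4, Rpl38-ps2, Rps16-ps2, Rpl36a-ps2, Rps26-ps1, Rps2-ps10, Rpl35a-ps3, Rpl17-ps9, Rpl36-ps12, Rps27a-ps2, Rpl23a-ps3, Rpl35a-ps6, Rpl35a-ps5, Rps4x-ps, Rpl9-ps4, Rps15-ps2, Rpl14-ps1, Rpsa-ps10, Rps15a-ps7 and Rpl17-ps3.

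Symbols that name a gene were found on 54 members with at least 10 reads, 33 of them ribosomal. Outside the ribosomal family, Mpc1-ps had most reads (207 in replicate 2 and 20 in replicate 1), followed by Gpx4-ps2 (44 and 79), a copy of the lipid peroxide reducing enzyme gene Gpx4, Cbx3-ps7 (51 and 69), a copy of a heterochromatin protein gene, Oaz1-ps (85 and 18), a copy of the ornithine decarboxylase antizyme gene, and Scp2-ps2 (58 and 32), a copy of the sterol carrier protein gene. Between 5 and 28 reads in replicate 2 and 1 and 49 in replicate 1 were seen for Mrpl23-ps1, Morf4l1-ps1, Nudc-ps1, Got2-ps1, Impdh2-ps, Pdcd5-ps, Tpt1-ps3, Gpr137b-ps, Cbx3-ps6, Rab11b-ps2, Atp6v0c-ps2, Ptges3-ps, Itpa-ps1 and Pisd-ps1. Cytochrome P450 pseudogenes made up all 4 members of the steroid and drug metabolism family by symbol, with 133 reads in replicate 2 and 330 in replicate 1, mostly Cyp21a2-ps. Translation factors were represented by Eif4a-ps4 (105 and 208 reads), and ubiquitin and proteasome genes by Ube2d-ps (15 and 28) and Ube2n-ps1 (8 and 11). By symbol, the chaperone, chromatin, glycolysis, respiratory chain and vomeronasal receptor families had 1 member each, Hsp25-ps1 (5 reads in replicate 2 and 7 in replicate 1), Hmgn2-ps1 (2 and 4), Pgam1-ps2 (1 and 2), Slc25a5-ps (1 and 2) and Vmn1r-ps136 (1 and 1). By closest gene most of these families were larger. Chaperone copies then numbered 5, with 1274 reads in replicate 2 and 1491 in replicate 1, nearly all on Gm15459. Glycolysis had 14 members (770 and 988 reads), most of the reads on the Gapdh copies, the respiratory chain and mitochondria 13 (755 and 662), ubiquitin and proteasome 7 (34 and 57), chromatin and nucleolus 6 (18 and 46), steroid and drug metabolism 5 (174 and 433) and translation factors 3 (108 and 215), in replicates 2 and 1. Apoo-ps (24 and 23) fell under the secreted liver proteins by the prefix of its symbol, although Apoo is known for its place in the mitochondrial inner membrane. No immunoglobulin or T cell receptor pseudogene was a member.

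Spliced reads were concentrated in few members. At least 1 read on a model of 2 or more exons was seen for 122 pseudogenes and at least 5 for 47, with 533 such reads in replicate 2 and 823 in replicate 1. Cyp21a2-ps alone held 31.6% of them. It is annotated with 9 exons, and all its 113 reads in replicate 2 and 315 in replicate 1 were spliced. They were spread over 57 different chains of introns, of which 17 were seen in both libraries and held 369 of its 428 reads. The annotated 9-exon chain had 27 reads in replicate 2 and 80 in replicate 1. An 8-exon chain of class NIC, with 5 of its 7 introns annotated for the pseudogene, had 31 and 66 reads. A second 8-exon chain whose 7 introns are all annotated had 11 and 35, and a 7-exon chain had 4 and 34, in replicates 2 and 1. All introns were annotated ones in 53 reads of replicate 2 and 149 of replicate 1. Cyp21a1 itself had 5110 reads in replicate 2 and 11998 in replicate 1, so the pseudogene took 2.16% of the pair's reads in replicate 2 and 2.56% in replicate 1. In addition, 14 models listed under Cyp21a1 reached both the pseudogene locus and Cyp21a1, with 8 reads in replicate 2 and 19 in replicate 1.

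**Figure D4:**
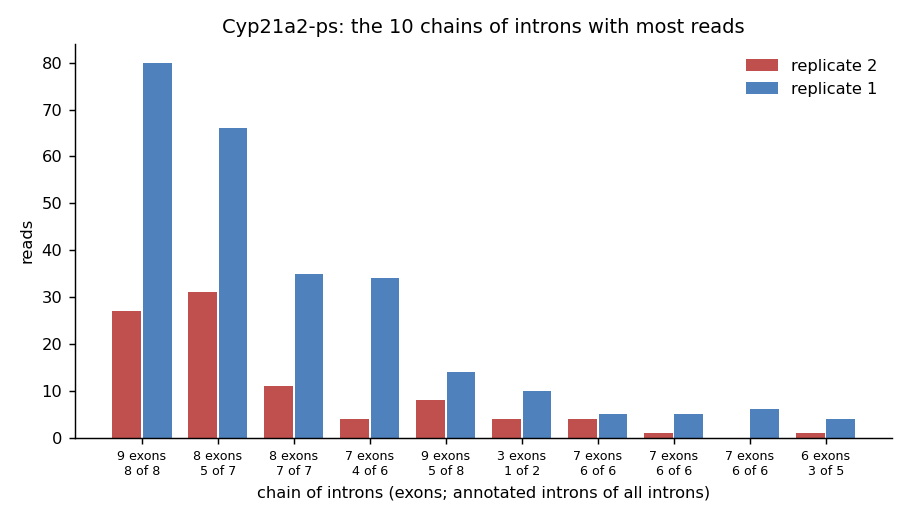
Reads (vertical axis) on the 10 chains of introns of Cyp21a2-ps with most reads, in replicate 2 (red, left bars) and replicate 1 (blue, right bars); labels give the exons of the chain and how many of its introns are annotated for the pseudogene. The annotated 9-exon chain (27 and 80 reads in replicates 2 and 1) and an 8-exon chain (31 and 66) stand above the rest.

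The other spliced members were far less read. Hyi, which encodes a hydroxypyruvate isomerase and is annotated as polymorphic, had 42 spliced reads in replicate 2 and 30 in replicate 1, mostly on Known models of 7 exons (21 and 13) and 8 exons (13 and 15). 2610005L07Rik, a transcribed unprocessed pseudogene with 6 annotated exons, had 16 and 35 spliced reads, 7 and 16 of them on a 5-exon chain. 2810025M15Rik had 21 and 25, of which 21 and 24 were on its 3-exon Known model. Ube2d-ps had 13 and 28, Ppp1ccb 18 and 23 on 3 chains, and Gm21811 14 and 22 on 10 chains, in replicates 2 and 1. Gm1821, closest to the polyubiquitin gene Ubb, had 13 spliced reads in each library, all with introns not annotated for it, and Gm49329 had 10 in replicate 2 and 16 in replicate 1, likewise. Spliced reads were also seen on 39 members annotated with 1 exon, with 43 reads in replicate 2 and 78 in replicate 1 in all.

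All 9 polymorphic and all 8 transcribed unitary members are annotated with several exons, and each had at least 1 spliced read. After Hyi (44 reads in replicate 2 and 32 in replicate 1), the polymorphic ones were H2-T10 (7 and 31), a class I histocompatibility gene, Atp10d (5 and 3), H2-Ea-ps (5 and 1), the antiviral genes Mx2 (3 and 3) and Oas1b (1 and 2), Cdk3-ps (3 and 2), Cd1d2 (2 and 2) and H2-Bl (3 and 0). These are genes disabled in C57BL/6-derived reference sequence, and the mice carry a CAST genome as well. The counts are not split by parent. Among the unitary ones Thap6 had most reads, 4 in replicate 2 and 9 in replicate 1, and Dcdc5, with 36 annotated exons, had 1 in each. H2-T-ps, an unprocessed histocompatibility pseudogene, had 3 and 8 reads, all spliced.

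Between the libraries, more pseudogenes were lower in replicate 2 than higher. The test was a two-sided exact conditional binomial test given each library's gene reads, run on genes of 20 or more reads in all and adjusted by Benjamini-Hochberg over all 9211 of them. Of the 138 pseudogenes that reached 20 reads, 8 were higher in replicate 2, 36 were lower and 94 did not pass, so 31.9% were called, against 26.4% of all genes tested. The share called higher was 5.80%, against 8.58% of all genes, and the share called lower 26.1%, against 17.9%. The median log2 ratio of replicate 2 to replicate 1 was -0.44 for the pseudogenes and -0.28 for all genes tested. It was negative for 113 of the 138 pseudogenes (81.9%), against 68.4% of all genes tested. Scaling mattered for the direction, of pseudogenes and of all genes alike. Under edgeR's TMM scaling the medians were -0.19 for pseudogenes and -0.03 for all genes, and 9 pseudogenes were higher and 19 lower. These 28 calls were 20.3% of the 138, against 18.8% of all genes (11.9% higher and 6.98% lower), and DESeq2 size factors also called 28 pseudogenes and 18.8% of all genes. Under ERCC spike-in totals the medians were 0.15 for pseudogenes and 0.31 for all genes, and 17 pseudogenes were higher and 3 lower. These 20 calls were 14.5% of the 138, against 24.3% of all genes (22.5% higher and 1.85% lower). A scaling moves every log2 ratio by the same amount, so the distance of -0.16 between the pseudogene median and that of all genes is a single measurement, whichever scaling is used.

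Ratios of the copies lay near those of their closest genes for most pairs. Over 127 pseudogenes whose closest gene was also tested, Pearson's r of the log2 ratios was 0.35 and Spearman's rho 0.37. This is a correlation across genes of the same 2 libraries, several pairs share a closest gene, and reads of near-equal pairs can be placed on either, so no p is given. The pseudogene lay within 0.5 log2 units of its closest gene in 90 pairs, at least 1 unit above it in 8 and at least 1 unit below it in 6. How many unrelated genes would lie as near was not counted. Of the 36 lower pseudogenes, 27 had a closest gene that was lower too. The 17.9% of all genes tested that were lower is no base rate for this, since closest genes were lower more often. Outside the named families, 57 of 153 tested closest genes were lower. Many pseudogenes that did not pass also had a lower closest gene. Ribosomal protein genes were the source of 19 of the 36 and of 53 of the 138 tested. Of 69 tested closest genes in that family, 59 were lower. Of 53 ribosomal copies tested, 0 were higher and 19 lower (0 and 10 of 25 by symbol), while 8.58% of all genes were higher and 17.9% lower. The median of the copies was -0.57, beside -0.55 for their closest genes and -0.28 for all genes. Under TMM scaling 6 of the 53 were lower and 0 higher, while 6.98% of all genes were lower and 11.9% higher. The median was then -0.32, beside -0.03 for all genes. Under spike-in totals 0 of the 53 were called, while 22.5% of all genes were higher and 1.85% lower. The median was then 0.02, beside 0.31 for all genes. The sign of the family's median thus depended on the scaling, and its distance of -0.29 from the median of all genes cannot.

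**Figure D5:**
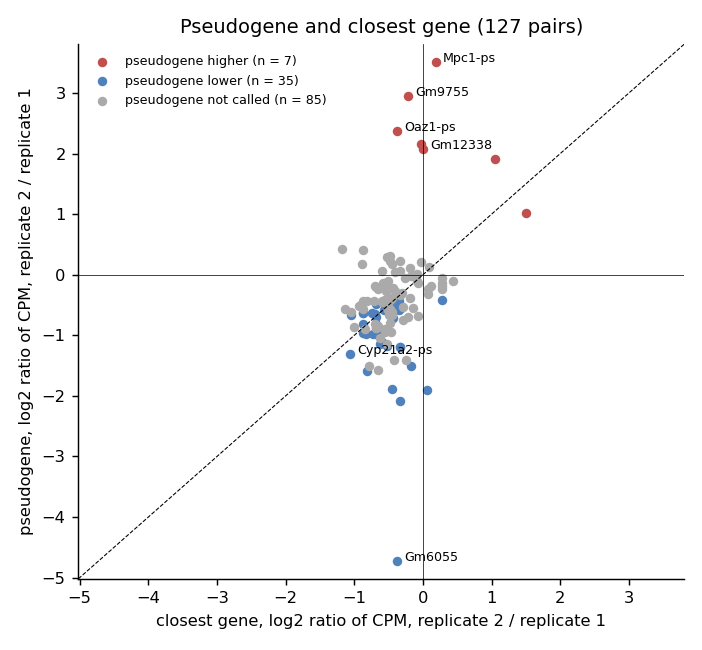
Log2 ratio of CPM, replicate 2 over replicate 1, of 127 pseudogenes (vertical axis) against that of their closest coding gene (horizontal axis), coloured by the call of the pseudogene; the dashed line marks equal ratios. The line runs through the main group of points, while Mpc1-ps, Gm9755, Oaz1-ps and Gm12338 lie above and Gm6055 below.

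Of the 8 pseudogenes higher in replicate 2, 5 had a tested closest gene that was not higher. For Mpc1-ps, with 207 reads in replicate 2 against 20 in replicate 1, the log2 ratio was 3.51 (SE 0.334, exact adjusted p = 1.30e-43), while Mpc1 had 268 and 264. Gm12338 had 323 and 86 (2.07, SE 0.175), while Cox7c had 704 and 792. Oaz1-ps had 85 and 18 (2.38, SE 0.370), while Oaz1 had 1303 in replicate 2 and 1901 in replicate 1 and was lower. Gm9755, a copy of the mitochondrial elongation factor gene Tufm, had 44 and 6 (2.95, SE 0.606), beside 129 and 169 on Tufm. Gm6969 had 41 and 10 (2.15, SE 0.498), beside 118 and 135 on Cox7a2l, a factor of respiratory supercomplexes. The transcribed unprocessed 9030619P08Rik, most like Ly6g, had 18 and 2 reads, 15 of those in replicate 2 on Known models of 4 exons. Its CPM ratio was 10.1, with a 95% counting interval of 2.43 to 90.0. The remaining calls went with their source genes, since Got2-ps1 (28 and 8, 1.92) and Scp2-ps2 (58 and 32, 1.02) copy Got2, a mitochondrial aminotransferase (114 and 62), and Scp2 (1313 and 521), which were higher as well. All 8 stayed higher under TMM, DESeq2 and spike-in scaling. Where edgeR's exact test assumed libraries to vary by a coefficient of variation of 0.2, 6 stayed higher, and Got2-ps1 and Scp2-ps2 were lost. That test called 7 of the 138 pseudogenes and 5.57% of all genes.

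The lower pseudogenes ranged in log2 ratio from -4.72 to -0.42. Gm6055, a copy of the autophagy gene Map1lc3b, had 1 read in replicate 2, against 44 in replicate 1. Its CPM ratio was 0.0256 (95% counting interval 0.000634 to 0.150, exact adjusted p = 3.18e-10), while Map1lc3b had 317 reads in replicate 2 and 462 in replicate 1. Gm5537, identical to the glycolytic gene Pgk1 over its length, had 4 and 21 reads (log2 ratio -2.09, SE 0.748), H2-T10 7 and 31 (-1.90, SE 0.586) and Gm15387, a copy of the chromatin protein gene Hmgb1, 8 and 35 (-1.89, SE 0.551). 2810047C21Rik1 had 6 and 22 (-1.62, SE 0.642) and Gm7334, a copy of Btg3, 13 and 45 (-1.58, SE 0.447). Cyp21a2-ps had a log2 ratio of -1.30 (SE 0.158), beside -1.06 (SE 0.024) for Cyp21a1. The smallest called change was that of Gm12033. Under spike-in totals Gm6055, Gm15387 and Cyp21a2-ps stayed lower, and in the test that assumed a coefficient of variation of 0.2 Gm6055 did.

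Markers of adrenal cells and of other tissues differed between the libraries beside these changes. All 8 hepatocyte markers, such as Alb and Trf, were higher in replicate 2, with a summed 78004 CPM there and 716 in replicate 1, and none was at 0. All 6 adrenal cortex markers were lower, at 24183 and 54122 CPM, and all 6 chromaffin cell markers, at 5040 and 12990 CPM, in replicates 2 and 1. Of 5 skeletal muscle markers 4 were higher, with a sum of 1703 CPM in replicate 2 and 60.1 in replicate 1, where Myh1 and Tnnt3 were at 0. Both brown fat markers were higher, at 4423 and 3375 CPM, and both erythroid markers lower, at 2837 and 8903 CPM, in replicates 2 and 1. These marker calls are from the main test, scaled to gene reads, which called 8.58% of all genes higher and 17.9% lower. Marker calls under other scalings are not given. In bulk tissue fewer cells of a type and less RNA per cell cannot be told apart, and the part of tissue make-up in the changes above was not tested. Among the 34 pseudogenes read only in replicate 2, Cyp2d37-ps had most reads, 13 there and 0 in replicate 1. That is a 4.88-fold difference in CPM when replicate 1 is set at the limit of 3 counts, and the 95% counting interval of the ratio starts at 3.43. Gm8893, closest to the protease inhibitor gene Serpina1a, followed with 9 and 0 and Cyp3a63-ps with 6 and 0, and the reads of these 3 were all spliced. The other 31 had at most 5 reads. Cyp2a21-ps, picked after its values were seen, had 1 read in replicate 2 and 15 in replicate 1 (CPM ratio 0.0750, counting interval 0.00178 to 0.488), while its closest gene Cyp2a5 had 31 and 1. These counts are below the 20 reads needed for the test.

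Position gave a further limit on what the counts mean. Of the 456 pseudogenes, 127 lie inside the bounds of a protein-coding gene, 40 on its strand and 88 on the opposite strand. The exons of 20 overlap an exon of a gene of another type on the same strand, and these took 328 reads in replicate 2 and 423 in replicate 1.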

How the data were processed

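Long-read RNA libraries of 2 adrenal gland samples were used. The authors deposited whole read counts per transcript model, not scaled for depth, and a TALON annotation on mm10 with GENCODE M21, per the file headers. Aligner, TALON version and read filters are not given in sources used here. Reads of all classes were summed per gene, and spike-ins (96 ERCC entries) were left out of totals. CPM, exact conditional binomial tests (SciPy 1.17.1, two-sided, Benjamini-Hochberg at 0.05, at least 20 summed reads) and log2 ratios of replicate 2 over replicate 1 (0.5 reads added, SE from counting) were computed. Shares have 95% Clopper-Pearson intervals. A count of 0 allows up to 3 counts, 3.17 CPM in replicate 2 and 2.82 in replicate 1. Reads have no molecular identifiers, so intervals cover counting error only.

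The closest coding gene came from BLAST+ 2.17.0 (word size 16, e-value 1e-10) of GENCODE M21 transcripts. Gene bounds are those of GENCODE M21. Chains of introns were compared exactly. Alternatives used edgeR 4.0.16 and DESeq2 1.42.0 scaling. Tests were checked on simulated Poisson counts. These hold no variation between libraries beyond counting error, so the check says nothing about such variation. The members and lists were chosen with earlier results of these data known. Genes named are the 15 of highest mean CPM, the 12 with most spliced reads, those naming a parent with at least 10 reads or leading their family, the 6 largest called ratios each way, and all polymorphic members. Closest genes, mitochondrial copies, unitary members and those read only or mainly in 1 library were added after their values were seen.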

Additional observations from a re-analysis of the deposited data

How the results depend on the processing

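The number of expressed pseudogenes, 456, was 275 at a minimum of 5 reads and 138 at 20. It stayed within 1.5 times under the other alternatives: 418 without Genomic reads, 436 without exon overlaps, 486 with chromosomes X and Y, and between 317 and 350 with either library left out. The share of gene reads on them lay between 1.10% and 1.37% with either library left out. Without Gm15459 the multi-exon share was 6.01% and the Known share 94.9%, and without Cyp21a2-ps, an alternative added after the data were seen, the multi-exon share was 3.80% instead of 5.36%. The 44 calls became 28 under TMM and 28 under DESeq2 size factors, 20 under spike-in totals and 7 where edgeR's exact test assumed a coefficient of variation of 0.2, while the share of calls that were higher moved to 32.1%, 32.1%, 85% and 85.7%, against 18.2% in the main test. Over all genes the same shares were 1093 of 1736, 1075 of 1731, 2071 of 2241 and 446 of 513 calls, against 790 of 2436 in the main test. TMM gave a median log2 ratio of -0.19, DESeq2 size factors one of -0.20 and spike-in totals one of 0.15. Under spike-in totals 10 called log2 ratios changed sign, those of Gm10123 (0.16), Gm12033 (0.17), Gm14303 (0.16), Gm15500 (0.054), Rpl37rt (0.080), Rps19-ps6 (0.0089), Gm13370 (0.10), Gm15501 (0.0093), Rpl19-ps11 (0.038) and Rpl31-ps8 (0.043). Of the 44 calls, 27 were kept under TMM and 27 under DESeq2 size factors, 11 under spike-in totals and 7 with the assumed coefficient of variation. Which copy of a near-equal pair a read belongs to cannot be recovered from counts. The cause of these shifts was not tested. No paired analysis was possible because the libraries form 1 group. At this depth 318 of the 456 pseudogenes had too few reads for a test.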
